A study of Mus musculus with 4 samples.

Results

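Regulatory T cell genes were examined in naive helper T cells whose furin gene had been targeted. The set comprised 10 genes: the transcription factors Foxp3, Ikzf2 and Ikzf4, the interleukin 2 receptor chain Il2ra, the receptors Ctla4, Tnfrsf18 and Tnfrsf4 that tune T cell activation, and the surface proteins Gpr83, Nrp1 and Itgae. Its members were all probe sets annotated to 1 of these symbols alone, which gave 10 of the 18193 genes named on the array, with 20 of its 45101 probe sets. The cells were sorted freshly from mice aged 10 to 11 weeks by CD4 and CD62L on the surface and the absence of CD44. The 2 arrays labelled knockout came from CD4-cre fur flox/flox mice, in which Cre is driven by the CD4 promoter and so acts in T cells at large, and the 2 labelled wild type came from fur flox/flox littermates without Cre. Both groups therefore carry the floxed alleles, and the labels name no control that carries Cre alone. Whether the arrays of 1 group represent separate or pooled animals is not stated in the labels, so every p-value reflects the spread among these samples alone.

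Regulatory T cells restrain other lymphocytes and keep self-tolerance, and Foxp3 is the transcription factor that defines them. Many carry a high level of CD25, the product of Il2ra, and of CTLA-4, and many look naive by CD62L and CD44, so a gate on these markers can hold them beside conventional naive cells. Furin is a proprotein convertase that cuts precursors such as that of TGF-beta, a cytokine that induces Foxp3 in peripheral T cells; the title of the study concerns furin in T cells and peripheral tolerance. In such a bulk sample, fewer regulatory T cells, less of their RNA per cell and a change in other cells that express the same genes cannot be told apart.

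Furin itself, the targeted gene, read 435.1 and 343.9 (MAS5 signal) on wild-type arrays and 391.4 and 446.9 on knockout arrays, given here and below in the order of arrays numbered 1 and 2. The groups overlapped, and since the labels do not name the deleted part of the gene, this probe set checks neither the deletion nor the labels. The arrays stood apart by their number rather than by genotype. Bacterial hybridisation controls, which do not come from the cells, read higher on the arrays numbered 2, by 6.25-fold in wild type and 6.09-fold in knockout. Differences are therefore given within the arrays numbered 1 and those numbered 2 as well as over all 4 arrays. The defining T cell markers were bright on every array, with Cd4 between 2974.4 and 3432.4 and Cd3e between 3160.7 and 7706.7. Of the markers of other cells, the summed signal of 7 B cell genes was 525.1 and 2602.5 on the wild-type arrays and 694.6 and 9166.2 on the knockout arrays, and that of 10 myeloid genes was 1287.8 and 3961.2 against 2000.7 and 13705.5.

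**Figure D1:**
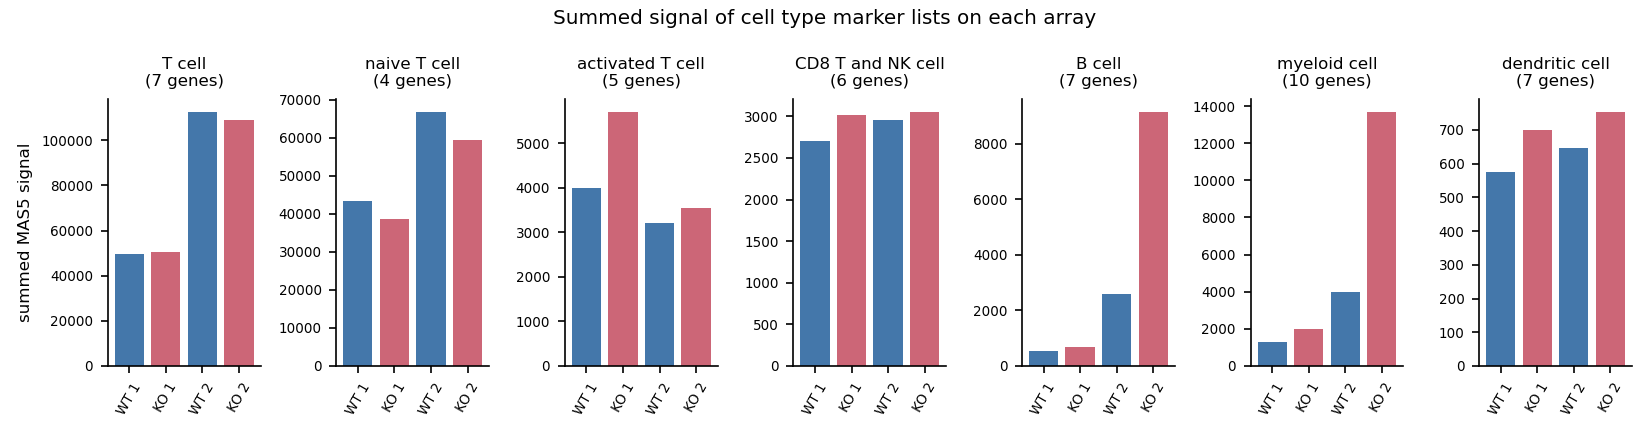
Summed MAS5 signal (vertical axis, linear, from 0, a scale of its own in each panel) of 7 lists of cell type markers on each array, wild type (WT) in blue and knockout (KO) in red; 1 bar is 1 array, with no error bar. The B cell and myeloid sums are highest on knockout array 2, at 9166.2 and 13705.5, while the CD8 T and NK cell sum stays between 2708.1 and 3056.3.

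The members had, on balance, slightly lower signals on the knockout arrays, with no member past the test. They were chosen with earlier results of these data known. The count of genes lower within both array numbers was added after seeing the data. Genes linked to the same cells are not independent of each other, and the counts were not tested. Within both array numbers 7 of the 10 genes were lower on the knockout array, 0 were higher and 3 went opposite ways, where 27.2% of all 10226 measured genes were lower and 27.6% higher within both. Their median difference, knockout minus wild type on the log2(signal + 15.3) scale, was -0.19 over all arrays, -0.39 within the arrays numbered 1 and -0.12 within those numbered 2, beside -0.002 over all genes. This scale understates the change of dim probe sets. Each gene is represented by its brightest probe set among those whose mean signal passed a filter of 65.4, as 17 of the 20 member probe sets and at least 1 of every member did. In limma with Benjamini-Hochberg adjustment over all 22518 kept probe sets, 0 of the 17 passed an adjusted p of 0.05, against a background of 0% called, and 0 of the 17 had an unadjusted p under 0.05, against 145 probe sets in all, or 0.644%. With so few arrays this count of 0 does not show that the members were alike in the groups. With array number as a block the fit again called 0 of 17, against a background of 0.00444%, and adding a trended prior to that block gave 0 of 17 against 1.14%.

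**Figure D2:**
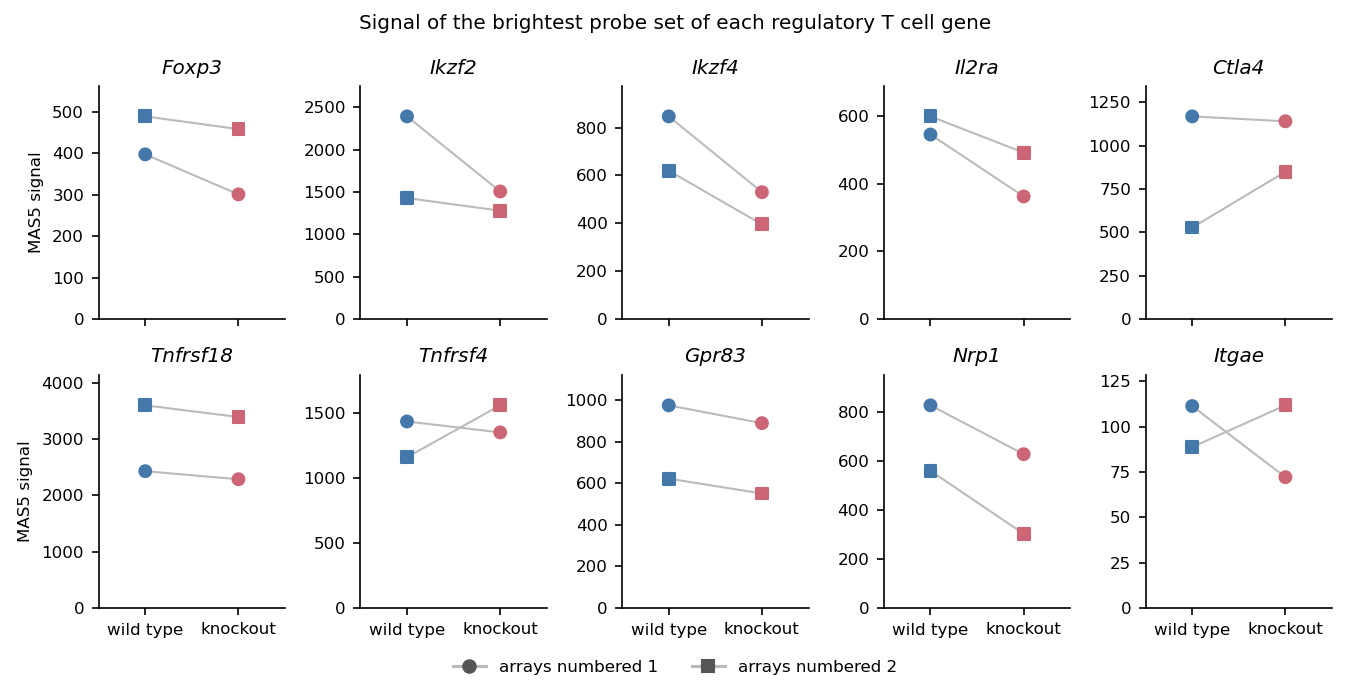
MAS5 signal (vertical axis, linear, from 0, a scale of its own in each panel) of the brightest probe set of each of the 10 genes on wild-type and knockout arrays; circles are arrays numbered 1, squares those numbered 2, and a grey line joins arrays of the same number. Both lines slope down for 7 genes, and for Ctla4, Tnfrsf4 and Itgae the lines go opposite ways.

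Among the transcription factors, all 3 genes were lower on the knockout array within both numbers, by widely different amounts. Foxp3, whose protein sets the regulatory T cell programme, read 397.5 and 489.2 in wild type and 300.9 and 458.4 in knockout. The groups overlapped, because knockout array 2 lay above wild-type array 1. The means were 443.4 ± 64.8 (SD, n = 2) for wild type and 379.7 ± 111 (SD, n = 2) for knockout. On the log2 scale the Foxp3 difference was -0.24 (SE 0.38, 95% interval -1.23 to 0.76), with -0.38 and -0.09 within the array numbers, and a fit with array number as a block gave an interval of -0.74 to 0.26. Neither interval excludes 0, and the difference between array numbers, 0.44 for Foxp3, was larger than that between genotypes.

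Ikzf4 encodes Eos, an Ikaros family protein that works with Foxp3 in gene silencing, and by the brightest probe sets it held the largest difference of the 10 genes. Its brightest probe set, 1457342_at, read 846.5 and 619.4 on the wild-type arrays and 529.8 and 395.4 on the knockout arrays. Both knockout arrays lay below both wild-type arrays, which held for 2 of the 10 members by their brightest probe set and 7.93% of all genes; the reverse held for 0 members and 8.56% of genes. The means were 733 ± 161 (SD, n = 2) and 462.6 ± 95 (SD, n = 2), and the log2 difference of -0.64 (SE 0.37, 95% interval -1.62 to 0.33) corresponds to a level 1.56-fold higher in wild type. It was nearly the same within the arrays numbered 1 and 2, at -0.66 and -0.63. A block for array number narrowed the Ikzf4 interval to -1.12 to -0.17, but limma's adjusted p over all probe sets was 0.562 (0.161 with a trended prior as well). A separate probe set of Ikzf4, 1438274_at, read 414.9 and 569.5 in wild type and 316.5 and 367.4 in knockout, again without overlap, with differences of -0.37 and -0.61. The third, 1460664_at, stayed between 2.9 and 16.6, below the filter.

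Ikzf2 encodes Helios, another Ikaros family protein found in most thymus-derived regulatory T cells. Its brightest probe set, 1437542_at, read 2393 and 1428 on the wild-type arrays and 1506.1 and 1279 on the knockout arrays. Wild-type array 1 stood far above the other 3, and the groups overlapped, since knockout array 1 exceeded wild-type array 2. The log2 difference of Ikzf2 was -0.41 (SE 0.41), from -0.66 and -0.16 within the numbers. The second kept probe set, 1456956_at, did not share this order. It read 600.6 and 477.5 in wild type and 473 and 600.9 in knockout, which gives -0.33 within number 1 and 0.32 within number 2. The third Ikzf2 probe set read at most 9.9 and was not kept. Ikzf1 and Ikzf5, family members used more widely in lymphocytes, had small differences in the same direction, with -0.20 and -0.10 within the numbers for Ikzf1 and -0.10 within each for Ikzf5. The third measured relative, Ikzf3, which encodes Aiolos, was at 0.22, from -0.24 and 0.68.

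Il2ra encodes CD25, the alpha chain that gives the interleukin 2 receptor its high affinity. Probe set 1420692_at read 544.9 and 598.5 on the wild-type arrays and 361.9 and 491.4 on the knockout arrays. Both knockout arrays were lower than both wild-type arrays. The means were 571.7 ± 37.9 (SD, n = 2) and 426.7 ± 91.6 (SD, n = 2), and the log2 difference was -0.42 (SE 0.35, 95% interval -1.34 to 0.49), with -0.57 and -0.28 within the numbers. The adjusted p for Il2ra with the block was 0.641 in limma. The dimmer Il2ra probe set, 1420691_at, disagreed: it read 63.3 and 243.1 in wild type and 82.7 and 153.9 in knockout. There the knockout array was higher within number 1, by 0.32, and lower within number 2, at -0.61.

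Foxp3 protein is known to bind regulatory DNA of Il2ra and of Ctla4, a pair of its classic targets. The bases just upstream of the RefSeq start of these 3 genes are shown for that reason, on the plus strand of GRCm38.p6, at chrX:7579426-7579675 for Foxp3, chr2:11642542-11642791 for Il2ra and chr1:60908775-60909024 for Ctla4. Capitals mark matches to the NFAT core GGAAA or its reverse complement TTTCC, and to the TATA motif TATAAA.
Foxp3: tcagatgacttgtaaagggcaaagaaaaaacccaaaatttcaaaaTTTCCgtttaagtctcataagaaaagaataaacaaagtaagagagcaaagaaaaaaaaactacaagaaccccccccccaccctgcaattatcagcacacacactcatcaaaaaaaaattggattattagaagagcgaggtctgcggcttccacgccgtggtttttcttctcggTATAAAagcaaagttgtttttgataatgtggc
Il2ra: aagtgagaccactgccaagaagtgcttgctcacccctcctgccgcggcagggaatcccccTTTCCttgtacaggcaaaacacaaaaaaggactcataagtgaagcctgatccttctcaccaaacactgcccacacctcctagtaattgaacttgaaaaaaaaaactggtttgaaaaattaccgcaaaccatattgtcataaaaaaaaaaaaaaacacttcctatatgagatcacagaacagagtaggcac
Ctla4: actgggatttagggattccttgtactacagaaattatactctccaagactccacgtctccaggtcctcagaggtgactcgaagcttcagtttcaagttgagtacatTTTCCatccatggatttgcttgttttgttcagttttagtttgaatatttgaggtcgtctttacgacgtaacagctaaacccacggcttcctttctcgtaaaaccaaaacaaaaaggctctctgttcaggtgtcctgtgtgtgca
Each window held 1 NFAT core, as 55.6% of 32851 such RefSeq windows held at least 1. The Foxp3 window also held a TATA motif, found in 12.4% of windows, while the other two held none. Matches to the forkhead motif GTAAACA (3.17% of windows), the STAT motif TTCNNNGAA (7.02%), the Runx motif TGTGGT (14%) and the Ikaros core TGGGAA (21.6%), each searched on both strands, were not in these windows. Of the 10 members, 7 had such a window in the RefSeq table.

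The receptors that tune activation showed no common direction. CTLA-4 competes with CD28 for its ligands and so restrains activation; Ctla4 read 1168.3 and 527 on the wild-type arrays and 1140 and 848.9 on the knockout arrays. The arrays numbered 1 were nearly equal, and wild-type array 2 was the low one. The log2 difference was 0.32 (SE 0.50, 95% interval -0.996 to 1.63), from -0.03 and 0.67 within the numbers. Tnfrsf4, which encodes the costimulatory receptor OX40, read 1432 and 1157.8 in wild type and 1348.1 and 1555.9 in knockout, with overlapping groups and differences of -0.09 and 0.42. Tnfrsf18 encodes GITR, a relative of OX40 that regulatory T cells carry at rest. It read 2428 and 3597 in wild type and 2284.5 and 3389.5 in knockout, and its difference was -0.09 over all arrays, the smallest in size of the 10 genes by their brightest probe sets, and -0.09 within each number. Its log2 interval, -1.16 to 0.99 and with the block -0.56 to 0.39, still allows changes of moderate size either way. Tnfrsf18 and Tnfrsf4 are neighbours on chromosome 4 in RefSeq.

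Among the other surface proteins Nrp1 held the lowest values relative to wild type. Neuropilin-1 is a co-receptor for semaphorins and VEGF and, in mice, marks thymus-derived regulatory T cells. All 4 of its probe sets were kept. The brightest, 1448943_at, read 828.9 and 561 on the wild-type arrays and 629 and 303.2 on the knockout arrays, with knockout array 1 above wild-type array 2. Probe set 1418084_at read 464.9 and 354.5 against 209.3 and 275.4, and 1457198_at read 237.9 and 220.6 against 124.3 and 168.2, and in both of these every knockout array was below every wild-type array. The dimmest of the 4, 1448944_at, was level on the arrays numbered 1, at 129 in wild type and 129.7 in knockout, and lower on knockout array 2, at 84.5 against 168.2. The log2 differences of the 4 Nrp1 probe sets were -0.62 (SE 0.49), -0.72 (SE 0.36), -0.61 (SE 0.34) and -0.44 (SE 0.38) in this order. Blocked by array number, the interval of the brightest was -1.16 to -0.08, and limma's adjusted p values of the 4 lay between 0.593 and 0.717. As for Ikzf4, the blocked interval leans on the pooled variance.

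Gpr83, a G protein-coupled receptor enriched in regulatory T cells, read 974.3 and 621.8 on the wild-type arrays and 888.7 and 550.3 on the knockout arrays with its brightest probe set. The log2 difference was -0.15 (SE 0.44), with -0.13 and -0.17 within the numbers, and the groups overlapped. The second probe set, 1423415_at, read 804.4 and 660.1 in wild type and 651 and 659.2 in knockout. Here the groups did not overlap, though wild-type and knockout array 2 were nearly equal. Itgae encodes CD103, the integrin alpha E chain that binds E-cadherin and is also found on CD8 T cells and dendritic cells. Its kept probe set, 1447541_s_at, of a type whose probes can match more than 1 transcript, read 111.3 and 88.7 in wild type and 72.1 and 111.7 in knockout, so that its direction turned between the numbers. The other Itgae probe set read between 49.1 and 67.8 and was not kept.

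**Figure D3:**
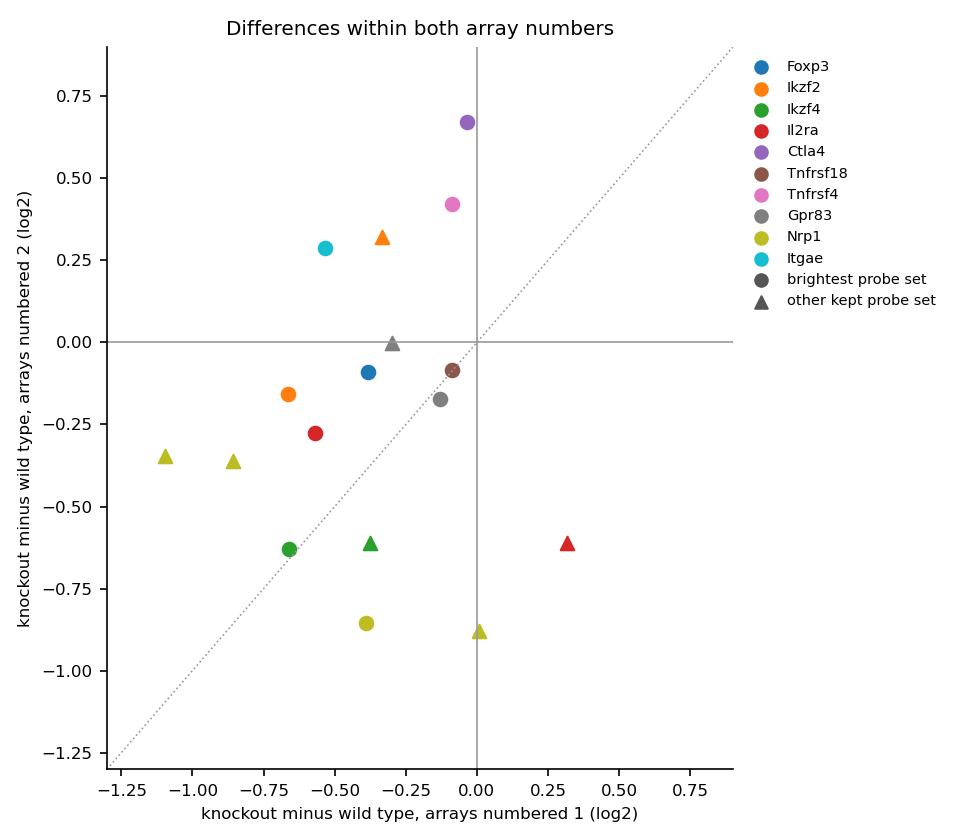
Knockout minus wild type on the log2(signal + 15.3) scale within the arrays numbered 1 (horizontal axis) and within those numbered 2 (vertical axis) for the 17 kept probe sets of the 10 genes; colours are genes, circles the brightest probe set of a gene, triangles its other kept probe sets, and points on the dotted line have equal differences. The lower left quadrant holds 11 probe sets and the upper right 0.

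Over the 17 kept probe sets, 11 were lower on the knockout array within both numbers, 0 were higher and 6 went opposite ways, where 30.2% of all kept probe sets were lower and 25.3% higher. In 6 of the 17, both knockout arrays lay below both wild-type arrays, against 9.48% of all kept probe sets, and in 0 above, against 7.58%. Probe sets of 1 gene share a transcript and are not independent; those 6 belong to Ikzf4, Nrp1, Il2ra and Gpr83. None of the 17 was 2-fold apart over all arrays. With the number as a block, 5 of the 17 had an unadjusted p under 0.05 in limma, against 8.12% of all kept probe sets, namely both of Ikzf4 and 3 of Nrp1. For 7 of the 10 genes the difference between array numbers was larger in size than that between genotypes. It ran in no single direction, with 4 genes brighter on the arrays numbered 2 and 6 brighter on those numbered 1. With 1 array left out, so that genotype and number are mixed, the sign turned for Foxp3 (0.054 without knockout array 1), Ctla4 (-0.24 without wild-type array 2), Tnfrsf18 (0.20 without wild-type array 2 or knockout array 1), Gpr83 (0.17 without wild-type array 1 and 0.19 without knockout array 2) and Itgae (0.02 without wild-type array 1 and 0.15 without knockout array 1). Nrp1 then ran from -1.13 to -0.11, Ikzf2 from -0.78 to -0.04, Ikzf4 from -0.87 to -0.42, Il2ra from -0.64 to -0.21 and Tnfrsf4 from 0.02 to 0.32.

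Beside these values, the B cell markers were higher on the knockout arrays within both numbers in 5 of 6 kept genes, with a median of 0.86 (0.26 and 1.44 within the numbers), and the myeloid markers in 8 of 8, with a median of 1.44 (0.83 and 2.20). The part of such cells in the members' values was not tested. The filter used the mean over all arrays, so a gene dim in wild type could be kept through the knockout arrays. Ngp, a myeloid marker, read 28.1 and 102.1 in wild type and 139.7 and 1087.1 in knockout, while Cd14 and Itgam were not kept. This can raise such counts and medians. The brightest B cell markers were Cd74, at 0.95 and 2.14 within the numbers, and Ms4a1, at 0.08 and 1.71, and the brightest myeloid ones Cst3, at 0.40 and 0.34, and S100a9, at 1.29 and 3.66. On the arrays numbered 1 S100a9 read only 1.7 in wild type and 26.4 in knockout, so the size of 1.29 depends on the pseudocount. The CD8 T and NK cell markers had a median of 0.17 (0.10 and 0.02), with 3 of 5 kept genes higher and 0 lower within both numbers, Klrd1 at -0.03 and Cd8b1 at 0.17. Cd8a was at -0.26 (0.08 and -0.60 within the numbers) and Eomes at 0.17 (0.10 and 0.24). Nkg7, a granule protein gene of this list, read 159.4 and 112.7 in wild type and 323.9 and 344.5 in knockout, without overlap, a difference of 1.22 (0.96 and 1.49). Limma called 0 of the 5 in the fit without a block, 0 in the blocked fit and 1 once a trended prior was added to it. That last fit called 1 of the 6 B cell and 4 of the 8 myeloid markers, against 118 of all 10226 genes. It called 0 of the T cell, naive, activation and dendritic cell markers. Of the dendritic cell markers Itgax, Cd209a, Siglech, Flt3 and Xcr1 were below the filter, while Ccr9 was at 0.28 and Zbtb46 at 0.10. The T cell markers Cd3d and Cd3g were at 0.05 and 0.10. The naive T cell markers had a median of -0.19 (-0.19 and -0.15) over 4 genes, 3 of them lower within both numbers, with the bright Il7r at -0.27 and Satb1 at 0.03. The 3 kept activation markers had a median of 0.44, with 2 higher and 1 lower within both numbers. Cd44, the protein excluded by the sort, was at -0.28, Cd69 at 0.44 (0.76 and 0.12) and Mki67, a marker of dividing cells, at 1.003 (0.30 and 1.70).

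Other genes linked to regulatory T cells had a median above 0, where that of the members was below. Of 21 measured genes of 33 listed, 10 were higher and 3 lower within both numbers, with a median of 0.15 (-0.02 and 0.25 within the numbers), and 0 passed the limma test with or without the block. Over all 10226 genes, the background of each list here and below, 27.6% were higher and 27.2% lower within both numbers. The 4 of largest difference by the naming rule, all of the same sign within both numbers, were Irf4, a transcription factor of effector regulatory T cells, at 0.93 (SE 0.45, 0.78 and 1.08), the zinc finger gene Plagl1 at -0.60 (SE 0.41, -0.92 and -0.28), Nt5e, which encodes the adenosine-forming enzyme CD73, at -0.57 (SE 0.53, -0.71 and -0.43), and the lectin-like receptor Klrg1 at 0.57 (SE 0.36, 0.91 and 0.24). Blocked by number, with a trended prior, 1 of the 21 was called, against 118 of all 10226 genes. Plagl1 and Nt5e thus had the sign of Ikzf4 and Nrp1, and Irf4 and Klrg1 the opposite one.

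Genes of the interleukin 2 receptor and its signalling gave a median of -0.05 over 10 measured genes. Of these 4 were higher and 2 lower within both numbers and 0 passed. Once the block and the trended prior were used 1 was called, against 118 of all 10226 genes. Socs3, a feedback inhibitor of cytokine signalling, read 5109 and 3962.3 in wild type and 8847.6 and 10987.6 in knockout, both knockout arrays above both wild-type ones. Its log2 difference was 1.13 (SE 0.35, 0.79 and 1.47 within the numbers), with limma's adjusted p at 0.516 with the block. Socs1, a related inhibitor, was at 0.42 (SE 0.68), the kinase Jak3 at 0.42 (SE 0.34) and Il2rb, the beta chain that pairs with CD25, at 0.29 (SE 0.66). The beta chain thus had the opposite sign to the alpha chain Il2ra, with intervals that both include 0.

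Regulators of Foxp3 had a median close to that of the members. Of 17 genes, 9 were lower and 2 higher within both numbers, where 27.2% of all genes were lower and 27.6% higher. The median was -0.17 (-0.18 and -0.14), and 0 passed. The 4 named by the rule were Tet3, a DNA demethylase that helps to keep the Foxp3 locus open, at -0.74 (SE 0.70, -0.38 and -1.11), Foxo1, a forkhead factor that promotes Foxp3 expression, at -0.40 (SE 0.34, -0.45 and -0.36), Runx1, a partner of Foxp3, at -0.36 (SE 0.80, -0.44 and -0.28), and Nfatc2, an NFAT factor, at -0.28 (SE 0.36, -0.43 and -0.14). Tet3 was dim, at 41.7 and 167.4 in wild type and 28.4 and 69.6 in knockout, with overlapping groups. Only wild-type array 2 lay well above the signal filter, so the size of the Tet3 difference rests largely on that array. Foxo1 read 8114.2 and 6592.2 in wild type and 5954.5 and 5140.9 in knockout, without overlap. Each is expressed in conventional T cells too.

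Genes known to be lower in regulatory than in naive conventional T cells had a median of 0.006 over 8 measured genes. Of these 3 were lower and 1 higher within both numbers and 0 passed. With block and trended prior 1 was called, against 118 of all 10226 genes. Dapl1 was at 0.62 (SE 0.86), Il7r, the interleukin 7 receptor, at -0.27 (SE 0.32), Tgfbr3 at -0.22 (SE 0.42) and Lef1 at -0.10 (SE 0.51). Ligands, partners and adaptors of the member surface proteins had a median of -0.02 over 10 genes, with 4 lower and 2 higher within both numbers and 0 passed. Of these Cd86, a ligand of CTLA-4 and CD28, was at -0.45 (SE 0.40, -0.62 and -0.29), the adaptors Traf1 and Traf5 at 0.31 (SE 0.43) and 0.26 (SE 0.37), and Cd28 at -0.18 (SE 0.32). Of the 3 other Ikaros family members 2 were lower within both numbers and 0 higher, with a median of -0.10 and 0 passed.

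**Figure D4:**
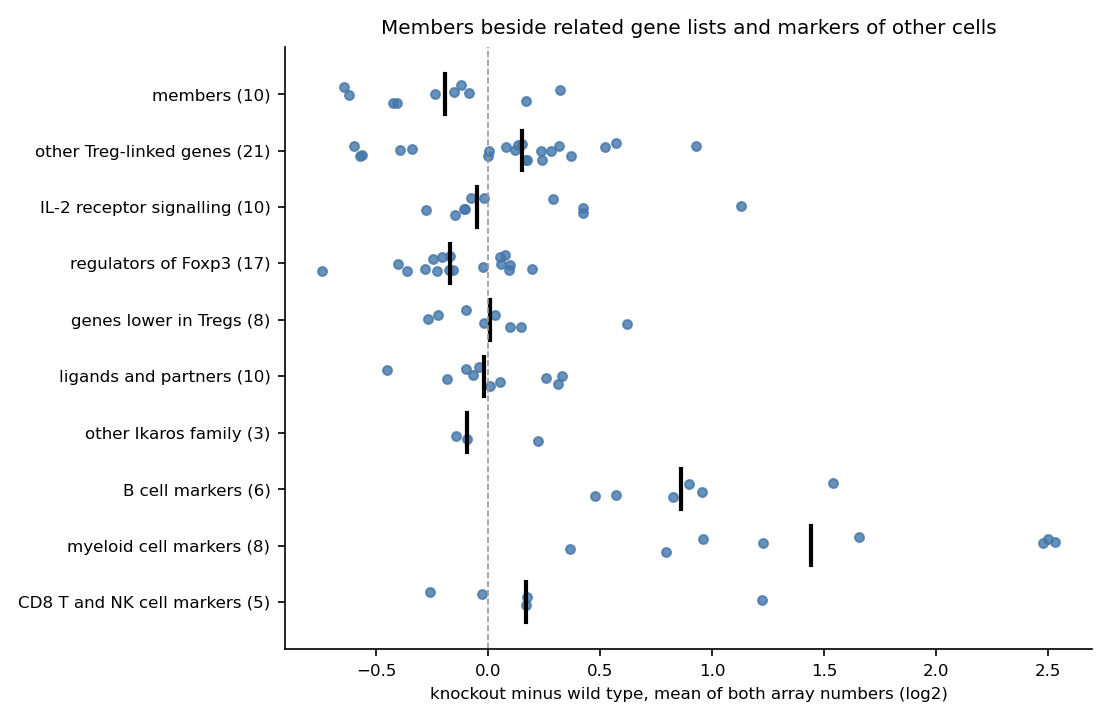
Knockout minus wild type on the log2(signal + 15.3) scale (horizontal axis) for each measured gene of the members, the 6 related lists and 3 marker lists (rows, number of genes in brackets); a point is the brightest kept probe set of a gene, a black bar the median of the list and the dashed line the median of all genes, -0.002. The members' median is -0.19, that of other genes linked to regulatory T cells 0.15 and that of myeloid markers 1.44.

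The genes whose pattern over the 4 arrays was nearest to that of Foxp3, by the sum of squared differences of mean-centred log2 values, were Adgre5 (0.00076), Rasa3 (0.0023), Suco (0.0036), Gosr1 (0.0046) and Chaf1b (0.0055). Each had its lowest signal on knockout array 1 and its highest on wild-type array 2, as Foxp3 did. Among the members Il2ra was the closest, with a distance of 0.059 and rank 321 of 10225 genes, followed by Tnfrsf18 with 0.061 and rank 333. Ctla4 and Nrp1 were the farthest, at 1.81 and 1.78. With so few arrays many genes share such a pattern, which is a description only.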

How the data were processed

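Total RNA (5 micrograms) was labelled as biotinylated cRNA, per the labels' protocols. The deposited intensities are linear MAS5 signals, 1 a probe set, per the submitters' processing notes; its settings are not stated there. The trimmed mean of an array (2% trimmed at each end), averaged over the 4 arrays, was 500.003, and no further scaling was applied. No detection calls were used, and the number of arrays limits the precision.

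Of 45101 probe sets, 64 controls were left out; of the rest 34945 had 1 symbol, 932 several and 9160 none. Symbols were updated through Entrez identifiers (34741) in a RefSeq table of GRCm38.p6. Probe sets with a mean signal above the median were kept. Those ending in _s_at or _x_at, as for Itgae, Foxo1, Izumo1r, Socs3, Plagl1, Cd8a and Ccr9, can match more than 1 transcript. The pseudocount 15.3 is the 25% quantile of all values.

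Limma 3.58.1 in R 4.3.3 (lmFit, eBayes, two-sided) compared the groups without a block. The check required of a run on simulated data concerned only the size of built-in changes, not the calls. Array numbers are not tied to an animal or day in the labels; deviations of same-numbered arrays from group means correlated at 0.80 across probe sets, and 7686 probe sets differed between numbers. The named genes are the members, Furin, and of each list those called or else up to 4 of largest difference with 1 sign within both numbers and of each marker list the 2 brightest; for Foxp3 the 5 nearest genes are added. Cd4, Cd3e, Ngp, Nkg7, Cd8a, Eomes, Mki67, Ikzf3, Icos and Izumo1r were named after their values were seen. The members and lists were chosen with earlier results of these data known. Alternatives covered pseudocount, filter, normalization, prior, block, threshold, probe set choice and each array left out.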

Additional observations from a re-analysis of the deposited data

How the results depend on the processing

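No member was called under the alternatives run, and all 10 member differences kept their direction in the 138 values computed without leaving out an array. Many of these values could not differ, since the filter, prior, block and threshold settings leave a member's difference as it was. Only the pseudocount, the normalization and the mean over probe sets could move it. The count of kept probe sets called, 0 in the reported fit, was 1 with array number as a replicate block, 257 when a trended prior was added to it, and 6 with the block and a filter on mean log2 signal (this filter was chosen after seeing the data); the cause was not tested. The count of members lower within both numbers, also chosen after seeing the data, was 6 of the 8 members measured above the 75% quantile of mean signal, 6 of 10 with the mean of the kept probe sets, and 7 of 10 otherwise. The block has 1 residual degree of freedom against 2, and its median residual SD was 0.150 against 0.413.

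With 1 array left out, genotype and array number are mixed. The median over members then ran from -0.33 to -0.08, and the count of calls, of members and of probe sets, from 0 to 0. The differences ran from -0.53 to 0.054 for Foxp3, -0.49 to 0.19 for Gpr83, -0.39 to 0.15 for Itgae, -0.37 to 0.20 for Tnfrsf18 and -0.24 to 0.88 for Ctla4, so these 5 turned sign. Foxp3 turned without knockout replicate 1, Gpr83 without wild-type replicate 1 (0.17) or knockout replicate 2, Itgae without wild-type replicate 1 (0.02) or knockout replicate 1, Tnfrsf18 without wild-type replicate 2 or knockout replicate 1, and Ctla4 without wild-type replicate 2. Nrp1 ran from -1.13 to -0.11, Ikzf2 from -0.78 to -0.04, Ikzf4 from -0.87 to -0.42, Il2ra from -0.64 to -0.21 and Tnfrsf4 from 0.02 to 0.32, without a change of sign.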

Other observations

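Of the RefSeq neighbours of members that are not members themselves, only Izumo1r, Icos and Cd28 are given here, chosen after their values were seen. The values of the other neighbours are not given. Izumo1r, which encodes folate receptor 4, lies next to Gpr83 on chromosome 9 and is also linked to regulatory T cells. It read 2412.4 and 2735.5 on the wild-type arrays and 3541 and 3857.9 on the knockout arrays, so both knockout arrays were higher, and its log2 difference was 0.52 (SE 0.33, 0.55 and 0.49 within the numbers; limma's adjusted p = 0.600 with the block). Gpr83 was at -0.13 and -0.17.

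Ctla4 lies between Cd28 and Icos on chromosome 1. The costimulatory receptor gene Icos was higher on the knockout array numbered 2 with each of its 3 probe sets, at 0.55, 0.54 and 0.50, and on that numbered 1 with 2 of them, at 0.24 for both, and -0.06 for the third. Ctla4 was at -0.03 and 0.67 within the numbers, and the probe sets of Cd28 were at -0.25 and -0.11 and at -0.33 and -0.14.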
